A study of Mus musculus with 10 samples.

Results

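RNA sequencing libraries of sorted Lgr5 positive cells were compared with libraries of differentiated epithelium of the mouse intestine, gene by gene. The members were chosen by sample title: 2 libraries titled Lgr5 positive and 2 titled Differentiated epithelium, 4 of the 10 libraries of a study on telocytes and crypt Wnt signals. The other 6, of mesenchymal cells sorted by Foxl1, were kept out of the fit. Per the labels, the Lgr5 positive cells came from mice of mixed background with a genotype spelled Lr5-EGFP-IRES CreERT2, a reporter and inducible Cre placed in the Lgr5 gene, and their column names read GFP positive ISC. Replicate 1 of that group is labelled male and replicate 2 female. The differentiated epithelium came from wild type C57BL/6J mice, with no sex given and with no gate named for the sort. Strain and reporter genotype therefore cannot be told apart from cell type, and no age is given for either group. Separate animals are not stated for the replicates, and the p-values rest on the differences among these libraries, part of which may be technical. The tissue label reads intestine mesenchyme on all 4 libraries. The collagen gene Col1a1 and the smooth muscle actin gene Acta2 of mesenchymal cells were each at most 0.156 CPM in all 4 libraries, whereas the epithelial adhesion gene Epcam stood between 1356 and 2691 CPM.

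As background, the epithelium of the small intestine renews from stem cells at the base of the crypts, which divide under Wnt and Notch signals. Their progeny divide further in the crypt, stop dividing near its mouth and move up the villus as absorptive enterocytes or as secretory goblet, enteroendocrine and tuft cells, while Paneth cells move down and sit between the stem cells. Enterocytes digest and take up nutrients through a brush border of microvilli and are shed at the villus tip.

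Counting 1 transcript per gene, the Lgr5 positive replicates held 46415489 and 99628145 counts and the differentiated ones 79516088 and 80910717, and 15397 to 16237 of 18594 genes had a count. The 10 most abundant genes took 5.18% and 4.84% of the counts in Lgr5 positive cells and 10.8% and 9.93% in differentiated epithelium, where the apolipoprotein gene Apoa4 alone took 3.15% and 2.39%. Spearman correlations across genes were 0.977 between the Lgr5 positive libraries, 0.983 between the differentiated ones and 0.665 to 0.716 between groups. Levels are given as CPM (counts scaled to a library of fixed size), corrected by trimmed mean of M values (TMM), and log2 fold changes ± SE are for Lgr5 positive minus differentiated, from edgeR's quasi-likelihood test with Benjamini-Hochberg adjustment over 14534 genes. CPM does not correct for gene length, so it is used here to compare libraries and not genes.

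The 4 markers went in the direction of the labels. For Lgr5 this was set by the sort, which took cells by a reporter in that gene, so its difference is no test of the label. Lgr5 is also counted among the higher members of the crypt base, Wnt target and Wnt receptor lists below. Lgr5 (chr10:114887370-115024836, mm9), a receptor for R-spondins that marks crypt base stem cells, stood at 194 and 267 CPM in the sorted cells against 0.311 and 0.373 CPM in differentiated epithelium (log2 9.39 ± 0.44, adjusted p = 1.28e-05). Ascl2 (chr7:150152727-150155169), a transcription factor of the same cells, was at 53.4 and 58.2 CPM against 0.370 and 0.178 CPM (log2 7.68 ± 0.48, adjusted p = 1.75e-05). Apoa4, made by enterocytes of the upper villus, ran the other way, at 56.95 and 72.9 CPM against 48667 and 34299 CPM (log2 −9.32 ± 0.45, adjusted p = 1.28e-05). Ada, the adenosine deaminase of the villus tip, was at 11.5 and 13.9 CPM against 3032 and 3199 CPM (log2 −7.94 ± 0.38, adjusted p = 1.28e-05). For each of the 4 markers, both libraries of 1 group lay above both libraries of the other. The same held for 12240 of all 14534 genes tested. In bulk libraries, fewer cells of a type and less RNA per cell cannot be told apart, here and in every comparison that follows.

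**Figure D1:**
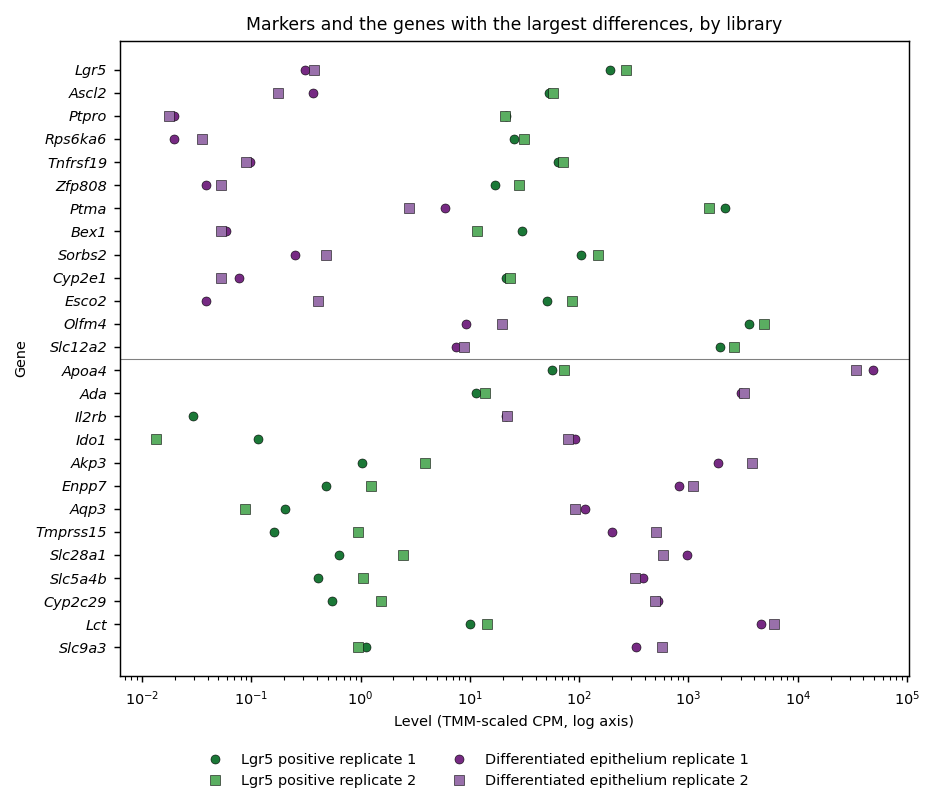
Level of the 4 markers and of the 12 genes with the largest fold change in each direction, in TMM-scaled CPM on a log axis. Each point is 1 library, circles replicate 1 and squares replicate 2. Genes above the grey line were higher in Lgr5 positive cells, and for every gene drawn the 2 groups do not overlap. The level of Il2rb in Lgr5 positive replicate 2 is 0 and has no point on the log axis.

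Of 14534 genes tested, 9642 (66.3%) were called at an adjusted p under 0.05, 5005 (34.4%) higher and 4637 (31.9%) lower in Lgr5 positive cells. More than 8-fold differences were found for 2131 of the higher and 1667 of the lower genes. The median log2 fold change over all genes tested was 0.12, and the 2 groups did not overlap for 12240 genes. The split depends on the scaling: higher genes made up 51.9% of the calls with TMM, 75.4% with scaling by total count and 63.9% with the deposited FPKM on the log2(FPKM + 1) scale. Scaling by total count moved the median of all genes by 1.15 on the log2 scale, so all differences here are relative to the TMM scale and small ones change direction with it. No gene called with TMM was called in the opposite direction under any of the alternatives. In 1 fit of all 10 libraries edgeR called 0 genes, with 1038 higher and 639 lower at an unadjusted p under 0.05, while DESeq2 on the 4 libraries called 4705 higher and 5083 lower.

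Among the genes with the largest fold changes upward was Ptpro, a receptor tyrosine phosphatase, at 21.5 and 21.02 CPM in Lgr5 positive cells and 0.0194 and 0.0178 CPM in differentiated epithelium (adjusted p = 1.41e-05), a ratio of 1142-fold that rests on 2 counts in the latter (95% counting interval 316 to 9433). Tnfrsf19, a receptor of the tumour necrosis factor family and a Wnt target, was at 63.8 and 71.4 CPM against 0.0972 and 0.0888 CPM (log2 9.48 ± 0.44). Slc12a2, the basolateral sodium, potassium and chloride importer of secretory epithelium, was at 1937 and 2601 CPM against 7.41 and 8.77 CPM (log2 8.13 ± 0.40). Both Lgr5 positive libraries stood far above both others for these 3 genes. Olfm4, a secreted glycoprotein of crypt base cells, was at 3561 and 4955 CPM against 9.24 and 19.5 CPM, and Ptma, the nuclear protein prothymosin alpha, at 2183 and 1556 CPM against 5.93 and 2.81 CPM (log2 8.21 ± 0.54 and 8.74 ± 0.55). The kinase gene Rps6ka6 had a ratio of 1032-fold from 3 counts in differentiated epithelium (interval 353 to 5005). The zinc finger gene Zfp808, Bex1, the adaptor gene Sorbs2, the cytochrome P450 gene Cyp2e1 and Esco2, an acetyltransferase of sister chromatid cohesion, had log2 fold changes between 8.23 and 8.88. In the other direction, the intestinal alkaline phosphatase gene Akp3 was at 1.03 and 3.90 CPM in Lgr5 positive cells and 1848 and 3815 CPM in differentiated epithelium (log2 −10.15 ± 0.85). The tryptophan-degrading enzyme gene Ido1 was at 0.116 and 0.0134 CPM against 91.4 and 79.4 CPM (log2 −10.68 ± 0.74). Aqp3, a basolateral water and glycerol channel, was at 0.204 and 0.0871 CPM against 113 and 92.4 CPM (log2 −9.57 ± 0.52). Enpp7, the alkaline sphingomyelinase of the brush border, Tmprss15, the enteropeptidase that activates trypsinogen, the nucleoside transporter Slc28a1, Slc5a4b, Cyp2c29, the lactase gene Lct and the sodium-proton exchanger Slc9a3 had log2 fold changes from −10.09 to −8.76. Il2rb, an interleukin receptor chain of lymphocytes, was at 0.0291 and 0 CPM against 21.5 and 21.99 CPM, a ratio of 1497-fold from 2 counts in Lgr5 positive cells (95% counting interval 414 to 12360.00). Lymphocyte genes as a list moved the same way and are described with the other cell types.

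**Figure D2:**
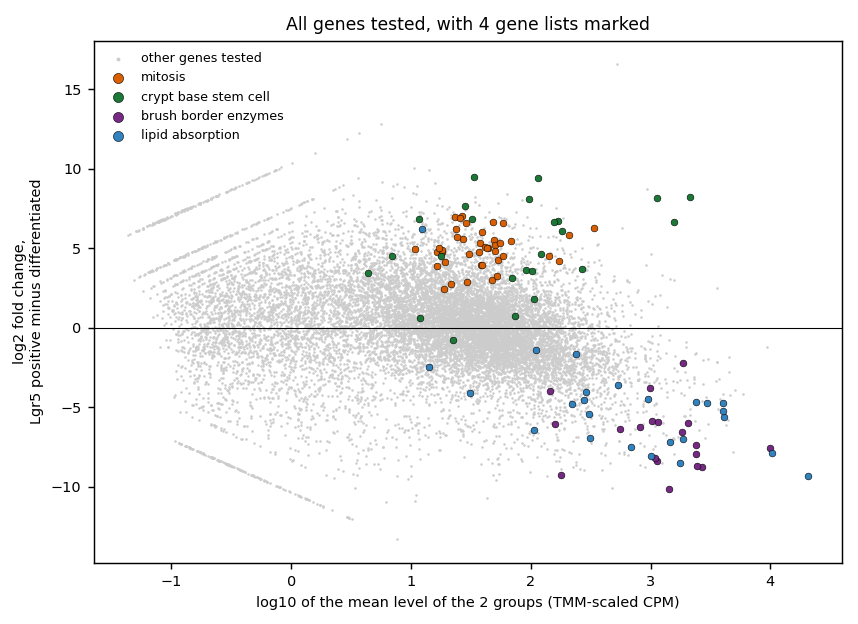
log2 fold change, Lgr5 positive minus differentiated epithelium, of all 14534 genes tested against the log10 of the mean level of the 2 groups in TMM-scaled CPM. Each point is 1 gene, with 4 lists in colour. Genes of mitosis and most crypt base genes lie above 0, and those of brush border enzymes and, but for 1 gene, of lipid absorption lie below 0 at high mean levels. The diagonal streaks on the left are genes with 0 or very few counts in 1 group.

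The crypt base list held 24 genes, all tested, of which 22 were higher in Lgr5 positive cells and 0 lower, where 34.4% of all genes tested were higher and 31.9% lower. Their median log2 fold change was 5.36, against 0.12 over all genes tested. Smoc2, a secreted matrix protein, was at 305 and 363 CPM against 2.57 and 3.80 CPM (log2 6.71 ± 0.39), and the RNA-binding gene Mex3a at 23.5 and 22.9 CPM against 0.194 and 0.213 CPM (log2 6.82 ± 0.44). The 2 members that were not called were Zbtb38 at 11.8 and 17.2 against 6.69 and 12.4 CPM and Sp5 at 17.6 and 15.8 against 35.3 and 21.4 CPM. Both differentiated libraries lay above both Lgr5 positive ones for Sp5, a transcription factor and Wnt target (log2 −0.76 ± 0.35, adjusted p = 0.0842). At the low end of the called members were the Wnt feedback genes Axin2, at 159 and 172 against 49.9 and 45.9 CPM (log2 1.79 ± 0.28), and Rnf43, a ubiquitin ligase that removes Wnt receptors, at 99.9 and 85.2 against 59.7 and 49.4 CPM (log2 0.76 ± 0.28, adjusted p = 0.0407). Rnf43 lost its call without Lgr5 positive replicate 1 or 2 or differentiated replicate 2 (log2 0.62, 0.87 and 0.59). Of 7 markers proposed for reserve stem cells, 6 were higher and 0 lower (median 2.96). Higher members such as Mex3a and Lrig1 are also on the crypt base list, so these lists are not independent. The polycomb gene Bmi1 was at 41.99 and 67.7 against 6.07 and 8.05 CPM (log2 2.96 ± 0.37). Hopx and Tert, also on that list, lost their calls without Lgr5 positive replicate 2 (log2 0.96 and 1.09). Hopx also lost it without differentiated replicate 2 (log2 0.76) and Tert without differentiated replicate 1 (log2 1.56).

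Of 20 Wnt targets and feedback genes tested, 16 were higher and 2 lower, with a median log2 fold change of 3.72. Several higher members are also on the crypt base list, among them Tnfrsf19, Lgr5, Ascl2, Cd44, Sox9, Axin2 and Rnf43. The counts of these lists are therefore not independent. Myc, which drives growth and division in crypt cells, was at 147 and 116 against 1.77 and 1.39 CPM (log2 6.38 ± 0.37, adjusted p = 1.48e-05), and the G1 cyclin gene Ccnd1 at 193 and 133 against 7.37 and 7.98 CPM (log2 4.41 ± 0.35). Cd44, a hyaluronan receptor, was at 232 and 389.9 against 2.49 and 3.71 CPM (log2 6.65 ± 0.45). The lower members encode secreted Wnt inhibitors: Notum at 0.0872 and 0 against 1.96 and 1.19 CPM (log2 −5.47 ± 1.24, adjusted p = 0.00475), and Wif1 at 0 and 0.0670 against 0.447 and 0.231 CPM. Wif1 lost its call without differentiated replicate 1 or 2 (log2 −2.65 and −3.60). Notum without Lgr5 positive replicate 1, and Wif1 without Lgr5 positive replicate 2, had 0 counts left in Lgr5 positive cells, and the fitted log2 values of −10.09 and −7.32 are no bounds.

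Among 17 Wnt receptors and co-receptors tested, 11 were higher and 2 lower. The Frizzled receptor gene Fzd2 was at 8.79 and 8.51 against 0.0583 and 0.0710 CPM (log2 7.02 ± 0.54) and Fzd3 at 2.94 and 2.38 against 0.0194 and 0.0533 CPM (log2 6.11 ± 0.74). The co-receptors of non-canonical Wnt signals Ror2 and Ptk7 were at 8.68 and 9.25 against 0.350 and 0.178 CPM and 11.1 and 9.38 against 0.700 and 0.409 CPM (log2 5.09 ± 0.51 and 4.21 ± 0.47). Fzd4 was at 0.334 and 1.45 against 9.92 and 21.9 CPM (log2 −4.12 ± 0.73) and the canonical co-receptor Lrp5 at 41.7 and 29.01 against 151 and 136 CPM (log2 −2.02 ± 0.31), both lower in Lgr5 positive cells. Fzd5 was at 111 and 102 against 116 and 115 CPM and Ryk at 90.1 and 86.2 against 86.2 and 70.9 CPM, and neither was called (log2 −0.12 ± 0.27 and 0.17 ± 0.28). The sign of Fzd5 turned with scaling by total count.

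The Notch pathway holds crypt cells in a dividing state and splits absorptive from secretory fate. Of its 17 genes tested, 11 were higher (64.7%, against 34.4% over all genes tested) and 3 lower (17.6%, against 31.9%) with TMM. With scaling by total count 13 were higher and 0 lower, and with a filter of 1 CPM in 2 libraries 8 and 2. The median log2 of 1.87 was 1.83 without differentiated replicate 1 and 1.65 without replicate 2. The receptor gene Notch1 was at 48.01 and 50.8 against 3.27 and 4.56 CPM (log2 3.66 ± 0.35), and Hes1, the repressor that Notch induces, at 150.3 and 201 against 12.9 and 6.45 CPM (log2 4.18 ± 0.43, adjusted p = 8.10e-05). The ligand gene Jag1 was higher (log2 1.63 ± 0.33), while the ligand gene Dll4 was at 8.88 and 6.72 against 35.1 and 24.7 CPM and lower (log2 −1.94 ± 0.36), with no call under scaling by total count (log2 −0.78). Dll1, another ligand, was called lower with TMM (log2 −0.85 ± 0.28, adjusted p = 0.0276), but lost the call without Lgr5 positive replicate 1 or 2 or differentiated replicate 1 (log2 −1.03, −0.71 and −0.78) and turned positive with scaling by total count. The secretory fate factor Atoh1 was at 12.7 and 9.89 against 13.98 and 8.67 CPM, with overlapping groups and no call (log2 −0.00 ± 0.38).

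Eph receptors and ephrins, which sort crypt from villus cells, split into 8 higher and 5 lower members of 15 tested. The higher share was 53.3%, against 34.4% over all genes tested, and the lower share 33.3%, near the 31.9% over all genes tested. The receptor genes Ephb3 and Ephb2 were at 66.6 and 38.1 against 1.32 and 0.622 CPM and 73.6 and 51.7 against 10.3 and 10.1 CPM (log2 5.75 ± 0.53 and 2.62 ± 0.32), and Ephb4 at 129.7 and 104 against 10.3 and 7.14 CPM (log2 3.74 ± 0.34). Their ligand genes Efnb1 and Efnb2 were lower, at 24.1 and 16.3 against 161 and 93.4 CPM and 22.4 and 27.8 against 105 and 129 CPM (log2 −2.66 ± 0.38 and −2.22 ± 0.30). The receptor genes Epha2 and Epha1 were also lower, Epha2 at 8.24 and 5.89 against 215 and 192 CPM (log2 −4.85 ± 0.35) and Epha1 at 15.6 and 14.1 against 295 and 246 CPM (log2 −4.19 ± 0.31). The third B-type ephrin gene, Efnb3, was higher, at 1.34 and 1.77 against 0.486 and 0.266 CPM (log2 2.05 ± 0.62, and 1.62 with no call without differentiated replicate 2).

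Of 15 genes of bone morphogenetic protein (BMP) signalling tested, 4 were higher (26.7%, against 34.4% of all genes tested) and 6 lower (40%, against 31.9%), 7 and 2 with scaling by total count, and the list's median changed from −0.46 with TMM to 0.69 with scaling by total count. Id3, a transcriptional inhibitor that BMP induces, was at 16.03 and 11.7 against 156 and 78.4 CPM (log2 −3.08 ± 0.41), and the inhibitory Smad gene Smad7 at 12.01 and 14.5 against 85.98 and 71.95 CPM (log2 −2.58 ± 0.30). Both remained lower with total count scaling, at log2 −1.92 and −1.42. Bmp7 was higher, at 5.97 and 5.77 against 0.428 and 0.444 CPM (log2 3.75 ± 0.46). For 15 genes of the epidermal growth factor family the split was the same, 4 higher and 6 lower, and with total count scaling it was 6 and 5 and the sign of the median turned. The higher count was 1 without Lgr5 positive replicate 2 or differentiated replicate 1, and 2 without differentiated replicate 2. The ligand gene Areg was at 0.683 and 0.804 against 37.6 and 58.9 CPM (log2 −6.01 ± 0.42) and the receptor gene Erbb3 at 42.4 and 38.2 against 286 and 511 CPM (log2 −3.30 ± 0.37), both lower in Lgr5 positive cells. Lrig1, a membrane protein that restrains ErbB receptors, was at 176 and 199.8 against 15.6 and 16.1 CPM (log2 3.57 ± 0.30), and the receptor gene Egfr at 19.8 and 24.8 against 14.97 and 29.2 CPM with no call (log2 0.01 ± 0.39).

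All 41 mitosis genes tested were higher in Lgr5 positive cells, with a median log2 fold change of 5.02, and the count was 41 of 41 under each scaling, without each library in turn and in every other alternative but the fit of all 10 libraries. Ube2c, the ubiquitin-conjugating enzyme of mitotic exit, was at 80.5 and 80.1 against 2.02 and 2.75 CPM (log2 5.07 ± 0.35, adjusted p = 2.03e-05). The kinetochore gene Ndc80 was at 53.1 and 53.1 against 0.292 and 0.533 CPM (log2 7.00 ± 0.44), and the cyclin gene Ccna2 at 249 and 292 against 9.84 and 13.9 CPM (log2 4.51 ± 0.34). Top2a, the topoisomerase that untangles sister chromatids, was at 377 and 438 against 4.10 and 10.5 CPM, and the proliferation marker Mki67 at 676 and 646 against 3.79 and 13.6 CPM (log2 5.80 ± 0.52 and 6.24 ± 0.64). For DNA replication, 39 of 41 genes were higher and 0 lower (median 3.50). Prim1, a primase subunit, was at 121 and 127 against 0.758 and 1.44 CPM (log2 6.81 ± 0.44), and the helicase gene Mcm3 at 100.01 and 78.3 against 2.10 and 2.97 CPM (log2 5.14 ± 0.37). Pola2, a subunit of the DNA polymerase alpha and primase complex, was not called, at 21.1 and 23.8 against 27.2 and 21.5 CPM. It turned from log2 −0.11 ± 0.31 to a called 1.04 with scaling by total count.

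Because these genes moved together, the promoters of the members were searched for short motifs, and the ones with the smallest p among members with a single promoter and the motif are shown. Sequences are from RefSeq (GRCm38.p6) and run 5′ to 3′ on the gene's strand over the 250 bases before the start, and coordinates are of that build, not of the deposited mm9 table. In the first 4, capitals mark the letters TTTGAA of the cell cycle homology region element and CCAAT of the CCAAT box. Both strands were searched, and on the opposite strand the letters read TTCAAA and ATTGG. Ube2c lies on the plus strand at chr2:164769679-164769928, and Ccnb2, the mitotic cyclin, on the minus strand at chr9:70421555-70421804. Top2a lies on the minus strand at chr11:99024190-99024439 and Ncapd2, a condensin subunit, on the minus strand at chr6:125191587-125191836.
Ube2c: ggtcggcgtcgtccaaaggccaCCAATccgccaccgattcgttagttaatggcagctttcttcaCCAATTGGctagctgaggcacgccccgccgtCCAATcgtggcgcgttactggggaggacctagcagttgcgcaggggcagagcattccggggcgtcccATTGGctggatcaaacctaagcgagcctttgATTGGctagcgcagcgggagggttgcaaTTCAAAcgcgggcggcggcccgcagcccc
Ccnb2: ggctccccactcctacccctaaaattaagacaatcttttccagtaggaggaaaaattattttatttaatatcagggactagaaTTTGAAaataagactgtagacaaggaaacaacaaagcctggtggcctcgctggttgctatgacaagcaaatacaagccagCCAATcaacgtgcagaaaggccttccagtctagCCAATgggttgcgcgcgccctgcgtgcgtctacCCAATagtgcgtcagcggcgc
Top2a: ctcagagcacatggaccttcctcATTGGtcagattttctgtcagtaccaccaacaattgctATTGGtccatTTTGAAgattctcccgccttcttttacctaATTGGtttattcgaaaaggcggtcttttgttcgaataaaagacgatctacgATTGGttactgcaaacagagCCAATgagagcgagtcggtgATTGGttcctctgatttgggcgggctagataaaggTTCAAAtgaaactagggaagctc
Ncapd2: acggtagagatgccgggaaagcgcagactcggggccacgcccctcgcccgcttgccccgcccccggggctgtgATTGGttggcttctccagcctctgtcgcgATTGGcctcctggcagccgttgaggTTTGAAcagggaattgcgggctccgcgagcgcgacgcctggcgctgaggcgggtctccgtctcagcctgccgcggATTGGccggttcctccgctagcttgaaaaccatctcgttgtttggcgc
TTTGAA was found on either strand within 250 bases before to 50 bases after the start in 29 of 37 promoters of mitosis genes (78.4%), in 12.4% of the 12917 promoters of all genes tested and in 17.9% of all 32851 promoters in the table. CCAAT was found in 29 of 37 (78.4%), 37.7% and 37.4%. In the Ube2c promoter the 2 CCAAT matches at the run CCAATTGG overlap on opposite strands, and no TTTGAA match overlaps a CCAAT match in these 4 promoters. The 37 promoters belong to 35 of the 41 mitosis genes. Some of them have TTTGAA only at or after the start and not within the 250 bases before it. In Ccnb2 TTTGAA begins 167 bases before the start, farther out than the CCAAT matches at 87, 54 and 21. TTTGAA begins at 123 bases in Ncapd2, at 179 and 23 in Top2a and at 29 in Ube2c.

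For DNA replication genes the search used 3 forms of the E2F site on either strand. The first form was TTGGCGC, a further one was TTCGCGC, and the last was TTCCCGC. The promoters of 2 members with the last form, in capitals, are shown. Prim1 lies on the plus strand at chr10:128014965-128015214 and Rrm1, the large subunit of ribonucleotide reductase, on the plus strand at chr7:102441445-102441694.
Prim1: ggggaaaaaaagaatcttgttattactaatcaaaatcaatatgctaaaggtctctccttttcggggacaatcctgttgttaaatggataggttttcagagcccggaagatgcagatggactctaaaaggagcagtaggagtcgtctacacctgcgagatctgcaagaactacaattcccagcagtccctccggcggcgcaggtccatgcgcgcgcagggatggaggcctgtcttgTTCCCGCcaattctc
Rrm1: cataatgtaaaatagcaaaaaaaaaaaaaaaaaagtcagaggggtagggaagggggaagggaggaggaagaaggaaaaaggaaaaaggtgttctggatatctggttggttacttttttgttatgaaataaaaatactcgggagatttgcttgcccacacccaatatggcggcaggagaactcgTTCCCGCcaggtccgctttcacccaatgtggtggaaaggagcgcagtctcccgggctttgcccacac
In 38 promoters of 33 DNA replication genes, TTGGCGC was found in 26.3%, the form TTCGCGC in 18.4% and the form TTCCCGC in 36.8%. Over the promoters of all genes tested the shares were 3.97%, 2.86% and 7.76%, and over all promoters of the RefSeq set 2.45%, 1.59% and 4.60%. A match describes the letters in the window and does not show that a factor binds there.

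Of 26 regulators of the step into S phase, 14 were higher and 6 lower (16 and 3 with scaling by total count). The higher share with TMM was 53.8%, against 34.4% over all genes tested. The lower share was 23.1%, below the 31.9% over all genes tested. The transcription factor genes E2f1, E2f7 and E2f8 were higher (log2 4.93 ± 0.45, 5.56 ± 0.48 and 4.70 ± 0.40). The cyclin-dependent kinase inhibitor gene Cdkn1a (p21), which halts the cycle, was at 13.8 and 14.7 CPM in Lgr5 positive cells against 634 and 493 CPM (log2 −5.30 ± 0.34, adjusted p = 1.75e-05). Cdkn2b (p15), an inhibitor of the G1 kinases, was at 8.82 and 4.45 against 212 and 136 CPM (log2 −4.72 ± 0.46). Cdkn1b (p27), an inhibitor too, was on the other side, at 143 and 214 against 33.2 and 24.96 CPM (log2 2.62 ± 0.34, adjusted p = 0.000261).

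Genes that make ribosomes and nucleotides were higher in Lgr5 positive cells almost throughout. Of 29 ribosome biogenesis genes, 26 were higher and 0 lower (median 3.92). The nucleolar genes Npm1 and Ncl were at 1255 and 1034 against 12.5 and 16.9 CPM and 2136 and 1715 against 71.7 and 80.1 CPM (log2 6.28 ± 0.37 and 4.66 ± 0.33), and Dkc1, the pseudouridine synthase, at 150.2 and 151 against 2.45 and 3.96 CPM (log2 5.55 ± 0.38). The members not called were Tsr1, Bop1 and Ubtf, and Ubtf, a factor for ribosomal RNA transcription, turned from log2 −0.35 ± 0.31 to a called 0.81 with scaling by total count. Of 22 genes of nucleotide and one-carbon synthesis, 21 were higher and 0 lower. Paics, of purine synthesis, was at 175 and 211 against 2.02 and 3.02 CPM (log2 6.26 ± 0.39), and Ctps, which makes CTP, at 44.9 and 47.3 against 0.564 and 1.10 CPM (log2 5.78 ± 0.45). The 1 member not called was Psph, of serine synthesis, at 6.42 and 7.55 against 10.7 and 7.51 CPM.

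Among chromatin genes 17 of 22 were higher and 1 lower. The maintenance methyltransferase Dnmt1 was at 122 and 109 against 8.58 and 11.1 CPM (log2 3.55 ± 0.31), and its partner Uhrf1 at 138 and 117 against 0.895 and 2.02 CPM (log2 6.45 ± 0.48), whereas the de novo enzyme Dnmt3a was at 38.2 and 40.4 against 42.7 and 46.4 CPM with no call (log2 −0.18 ± 0.27). The polycomb methyltransferases were on opposite sides: Ezh2 at 98.6 and 129 against 19.6 and 26.2 CPM (log2 2.32 ± 0.32) and Ezh1 at 18.4 and 25.8 against 77.5 and 74.5 CPM (log2 −1.78 ± 0.30, adjusted p = 0.0011). With scaling by total count Ezh1 was not called.

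**Figure D3:**
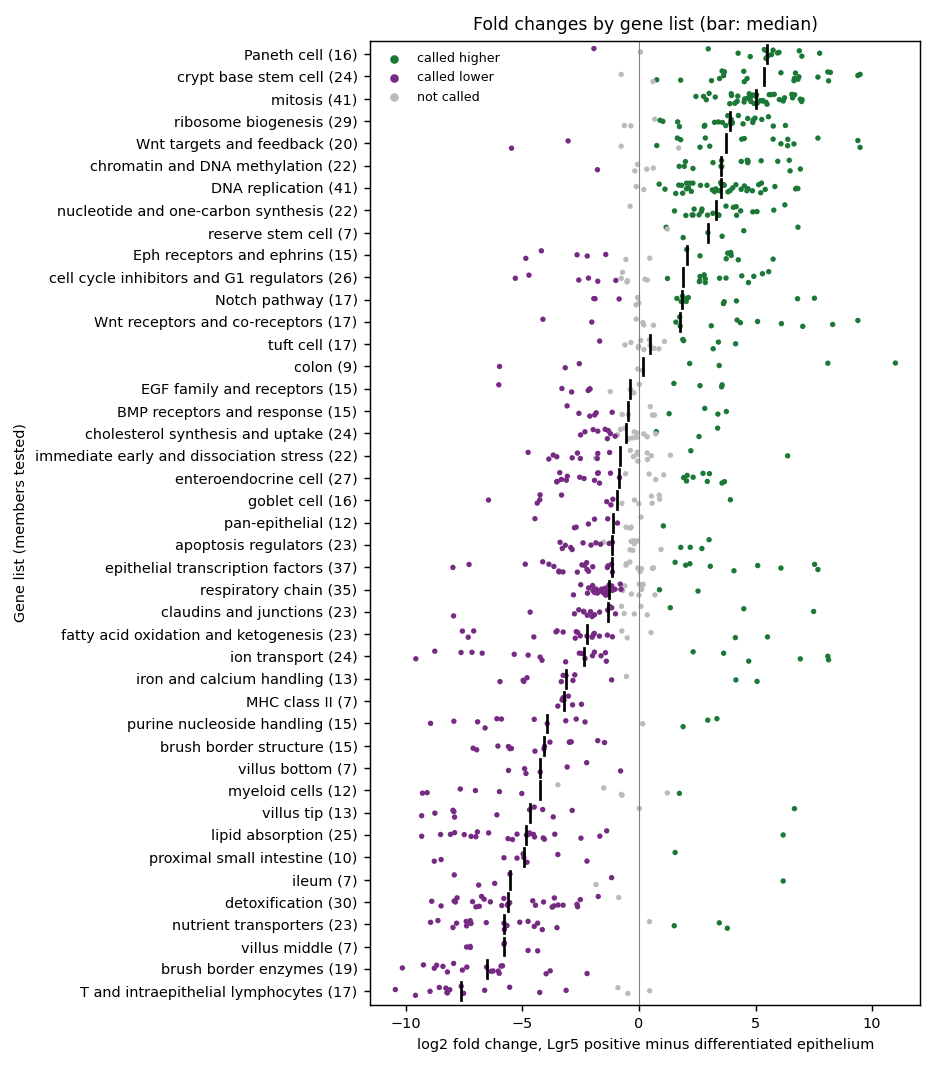
log2 fold change, Lgr5 positive minus differentiated epithelium, of the members of each gene list with at least 7 members tested, the number in brackets. Points are genes, green called higher, purple called lower and grey not called, and black bars are medians, in order of the median. Paneth, crypt base and mitosis genes stand at the top and lymphocyte and brush border enzyme genes at the bottom.

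Genes of the villus enterocyte were lower in Lgr5 positive cells, most of them by a wide margin. All 19 brush border enzyme genes were lower (median log2 fold change −6.54). Anpep, aminopeptidase N, was at 102 and 106 CPM in Lgr5 positive cells and 20429 and 19164 CPM in differentiated epithelium (log2 −7.57 ± 0.37, adjusted p = 1.28e-05). The lactase gene Lct was at 10.02 and 14.3 against 4641 and 6029.9 CPM (log2 −8.78 ± 0.44), the peptidase gene Ace at 9.42 and 14.2 against 5293 and 4389.8 CPM (log2 −8.68 ± 0.44), and the trehalase gene Treh at 5.41 and 7.93 against 2501 and 2039 CPM (log2 −8.41 ± 0.43). The smallest difference was that of Mgam, maltase-glucoamylase, at 837 and 472 against 1659 and 4465 CPM (log2 −2.23 ± 0.51, adjusted p = 0.00479, and −1.38 without differentiated replicate 2), and Sis, sucrase-isomaltase, stood at 39.1 and 87.1 against 2039 and 6000.4 CPM (log2 −5.99 ± 0.67). All 15 genes of brush border structure were lower too (median −4.08). The actin bundler Vil1 was at 344 and 315 against 7446 and 7076 CPM (log2 −4.46 ± 0.32), and the microvillar cadherins Cdhr2 and Cdhr5 had log2 fold changes of −6.05 ± 0.35 and −5.47 ± 0.36. The scaffold gene Pdzk1 was at 8.04 and 7.72 against 1213 and 968 CPM (log2 −7.11 ± 0.37) and the keratin gene Krt20 at 49.2 and 42.2 against 5262 and 6115 CPM (log2 −6.96 ± 0.37).

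Of 25 lipid absorption genes, 24 were lower and 1 higher. Npc1l1, the cholesterol importer, was at 17.5 and 21.5 against 2898 and 2828 CPM (log2 −7.20 ± 0.37). Mogat2 and Dgat2, which rebuild triglycerides, were at 7.79 and 7.43 against 1611 and 1132 CPM and 5.0004 and 5.24 against 679.9 and 569 CPM (log2 −7.49 ± 0.40 and −6.93 ± 0.35). The apolipoprotein genes Apoc3 and Apoc2 had log2 fold changes of −8.08 ± 0.39 and −8.51 ± 0.42. Apob, the structural protein of chylomicrons, differed between the differentiated libraries, at 1689 and 7597 CPM, and both lay above 167 and 193 CPM in Lgr5 positive cells (log2 −4.69 ± 0.68). The higher member was Fabp6, the ileal bile acid binding protein, at 36.4 and 12.3 against 0.642 and 0.0355 CPM (log2 6.19 ± 1.03, adjusted p = 0.000986), and 9.35 without differentiated replicate 1.

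Of 23 nutrient transporters 19 were lower and 3 higher. The sodium-glucose transporter Slc5a1 was at 154 and 161 against 9293 and 8138 CPM (log2 −5.79 ± 0.34), the fructose transporter Slc2a5 at 3.91 and 4.51 against 717 and 557 CPM (log2 −7.24 ± 0.37), and the folate transporter Slc46a1 at 3.74 and 2.83 against 880.3 and 769 CPM (log2 −7.98 ± 0.39). The 3 higher ones carry amino acids: the glutamine importer Slc1a5 at 145 and 139 against 12.4 and 13.6 CPM (log2 3.45 ± 0.30), Slc7a5 at 34.01 and 22.3 against 2.02 and 2.04 CPM (log2 3.79 ± 0.39) and Slc1a1 at 64.9 and 49.5 against 21.3 and 18.8 CPM (log2 1.51 ± 0.30). Slc3a2, the heavy chain that pairs with Slc7a5, was lower, at 49.9 and 43.5 against 946 and 708 CPM (log2 −4.15 ± 0.33). The lactate transporter Slc16a1 was not called, at 231 and 247 against 172 and 177 CPM (log2 0.45 ± 0.27).

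Of 24 ion transport genes, 6 were higher and 18 lower. The 6 higher genes were Slc12a2, the potassium channel genes Kcnq1, Kcne3 and Kcnn4, the chloride channel gene Cftr and the water channel gene Aqp4, all but Aqp4 known for chloride secretion. Kcne3 was at 356 and 377 against 2.53 and 3.52 CPM (log2 6.92 ± 0.38) and Cftr at 279 and 406 against 44.1 and 92.6 CPM (log2 2.32 ± 0.41, adjusted p = 0.0014). Lower genes included the anion exchanger Slc26a6 at 11.1 and 9.94 against 2288 and 1882 CPM (log2 −7.63 ± 0.38), the sodium-proton exchangers Slc9a3 and Slc9a2 (log2 −8.76 ± 0.47 and −4.75 ± 0.32), and the guanylin-family hormone gene Guca2b at 24.2 and 12.1 against 2185 and 1648 CPM (log2 −6.72 ± 0.48). With scaling by total count the counts were 6 and 13. For iron and calcium, 2 of 13 genes tested were higher and 10 lower. The transferrin receptor Tfrc, which brings iron in from the blood side, was at 520.1 and 765 against 22.8 and 49.2 CPM (log2 4.16 ± 0.46, adjusted p = 0.000117), while the iron exporter ferroportin Slc40a1 was at 9.99 and 8.30 against 158 and 402 CPM (log2 −4.94 ± 0.50) and the calcium channel Trpv6 at 0.116 and 0.475 against 20.6 and 18.7 CPM (log2 −5.96 ± 0.64). The vitamin D receptor gene Vdr was at 489.8 and 559.7 against 739 and 785 CPM and was not called (log2 −0.54 ± 0.27).

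Genes known for separate heights of the villus were all lower on balance. The median log2 fold change was −4.24 over 7 genes of the villus bottom, −5.79 over 7 of the middle and −4.69 over 13 of the tip. All 7 genes of the middle are also nutrient transporters of the list above. Tip genes such as Apoa4, Apob and Ada are also on the lipid absorption or purine lists. These medians are therefore not independent of those lists. Reg3b, an antimicrobial lectin of the villus bottom, was at 704 and 216 against 6029.7 and 11307 CPM (log2 −4.24 ± 0.62), with replicate 1 above replicate 2 in Lgr5 positive cells. The peptide transporter Slc15a1 of the middle was at 7.14 and 14.2 against 1609.9 and 1608 CPM (log2 −7.23 ± 0.47). At the tip the transcription factor gene Klf4 was at 25.9 and 38.7 against 565 and 566 CPM (log2 −4.13 ± 0.34) and Enpp3 at 2.21 and 6.02 against 1660.4 and 1914 CPM (log2 −8.75 ± 0.61). Clca4, which stands on both the tip and the crypt base lists, was the 1 tip gene that was higher, at 3059.7 and 3210.4 against 17.95 and 43.7 CPM (log2 6.67 ± 0.53, adjusted p = 3.03e-05). Among 15 genes of purine handling, 11 were lower and 3 higher. Xdh, xanthine dehydrogenase, was at 25.9 and 26.2 against 2270.3 and 2785 CPM (log2 −6.60 ± 0.36), and the equilibrative transporter Slc29a1 at 32.7 and 23.9 against 4.18 and 3.14 CPM (log2 2.95 ± 0.38). Hprt, which salvages purine bases, was higher (log2 1.89 ± 0.34).

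Of 30 detoxification genes, 29 were lower and 0 higher, with a median log2 fold change of −5.61. The cytochrome P450 gene Cyp2b10 was at 7.57 and 6.30 against 2506 and 2468 CPM (log2 −8.49 ± 0.39), and the carboxylesterase gene Ces2c at 3.74 and 5.54 against 1170.2 and 1012 CPM (log2 −7.87 ± 0.41). The member not called was the glucuronosyltransferase gene Ugt2b36, at 3.56 and 6.26 against 6.83 and 11.2 CPM. Cyp2e1, which is on none of the lists, went the other way, as given above.

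Fatty acid oxidation and ketogenesis held 18 lower and 2 higher genes of 23. The mitochondrial carnitine transferase gene Cpt2 was at 55.1 and 49.7 against 309.7 and 289.9 CPM (log2 −2.52 ± 0.28). The thioesterase gene Acot1 was higher, at 35.1 and 30.7 against 0.875 and 0.568 CPM (log2 5.51 ± 0.42). Cpt1a was not called, at 104 and 106 against 139 and 159 CPM (log2 −0.50 ± 0.27).

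For respiratory chain genes the call depended on the scaling: of 35 tested, 23 were lower and 2 higher with TMM, 5 lower and 9 higher with scaling by total count, and 12 lower and 4 higher on the log2(FPKM + 1) scale. The ATP synthase gene Atp5b was at 1259.6 and 1171 against 5515 and 4128 CPM (log2 −1.99 ± 0.30) and the complex III gene Uqcrc1 at 227 and 162 against 1722 and 1009 CPM (log2 −2.81 ± 0.37). The cytochrome c gene Cycs was at 53.5 and 41.7 against 8.30 and 8.15 CPM (log2 2.53 ± 0.32, adjusted p = 0.000219). Members of the same chain therefore differed in unequal measure whatever the scale. Cholesterol synthesis and uptake showed the same dependence. Of 24 genes, 9 were lower and 3 higher with TMM, and 3 lower and 10 higher with scaling by total count. The lower share with TMM was 37.5%, near the 31.9% over all genes tested. The higher share was 12.5%, against 34.4%.

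**Figure D4:**
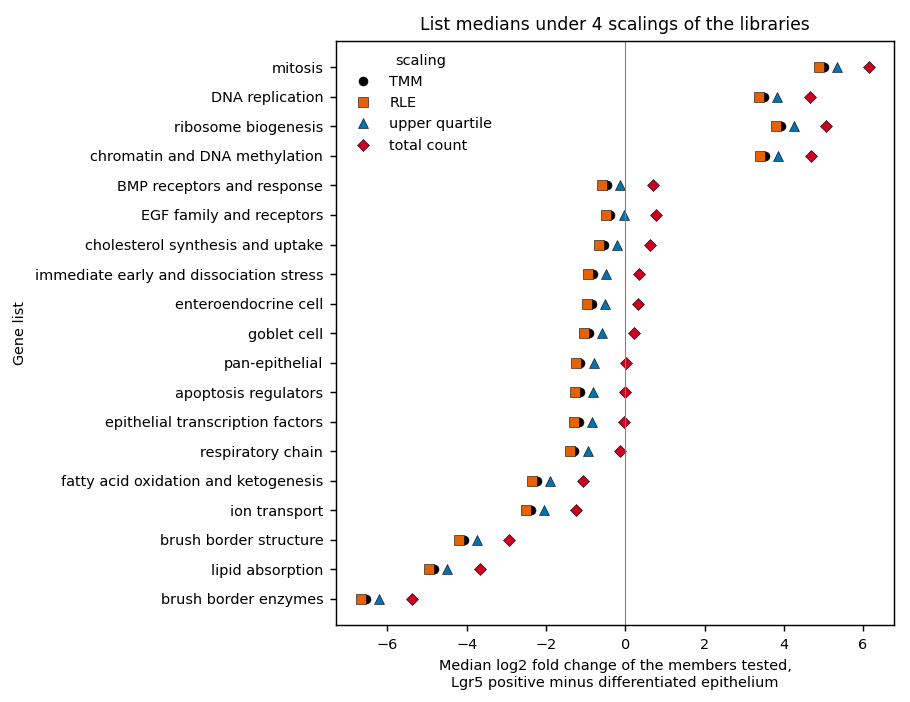
Median log2 fold change of the members tested of 19 gene lists under 4 scalings of the libraries. Each symbol is 1 scaling, TMM being the one used in the text. Lists from mitosis to chromatin stay above 0 and those from ion transport to brush border enzymes stay below 0 under all 4, while 8 lists in between, from BMP to apoptosis, have a positive median with total count scaling.

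Among 37 transcription factors of the gut epithelium, one of them the signal Ihh, 9 were higher and 20 lower with TMM and 14 and 16 with scaling by total count. Myb was at 289 and 362 against 1.32 and 2.18 CPM (log2 7.53 ± 0.43, adjusted p = 1.45e-05), Sox9 at 395 and 322 against 7.39 and 3.16 CPM (log2 6.09 ± 0.50), and Sox4 at 65.4 and 30.9 against 1.83 and 0.995 CPM (log2 5.09 ± 0.53). The pioneer factor genes Foxa1 and Foxa2 were higher as well (log2 3.06 ± 0.32 and 4.07 ± 0.47). On the other side, Creb3l3, a factor of lipid metabolism, was at 3.74 and 6.49 against 1563 and 1025 CPM (log2 −7.98 ± 0.49), and the xenobiotic receptor gene Nr1i3 at 3.71 and 3.15 against 98.1 and 103 CPM (log2 −4.88 ± 0.32). The enterocyte factor Hnf4a was at 574 and 536 against 1509.7 and 1331 CPM (log2 −1.36 ± 0.28, adjusted p = 0.00294) and Hnf4g at 93.9 and 128 against 453 and 663 CPM (log2 −2.33 ± 0.33). With scaling by total count Hnf4a was not called (log2 −0.20). The identity factors Cdx2 and Gata6 were at 235 and 157 against 306 and 208 CPM and 120.1 and 133 against 123 and 112 CPM, with overlapping groups and no call.

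Secretory lineages differed from one another. Paneth cell genes, antimicrobial for the most part, were higher in Lgr5 positive cells for 14 of 16 members and lower for 1 (median 5.49). The summed level of the list was 4244 and 824 CPM in Lgr5 positive replicates 1 and 2, and 1156 and 534 CPM in differentiated epithelium, so the sums of the groups overlap. By member, 15 of 16 did not overlap between groups in either direction, but neither did 12240 of all 14534 genes tested. Without Lgr5 positive replicate 1 the median of the list was 3.64. Lysozyme, Lyz1, was at 1256 and 149 against 16.6 and 57.1 CPM (log2 4.25 ± 1.04, adjusted p = 0.00851). It was at log2 1.99 without Lgr5 positive replicate 1 and lost its call without differentiated replicate 1 or 2 (log2 3.61 and 5.39). The protease gene Mmp7 was at 95.5 and 39.9 against 1.87 and 3.07 CPM (log2 4.77 ± 0.53). The defensin genes share near-identical sequences, so their separate counts are uncertain. Without differentiated replicate 1, or without replicate 2, 5 members were called higher. Itln1 was not called (log2 0.06 ± 0.60), but without Lgr5 positive replicate 1 it was called lower (log2 −1.28).

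Goblet cell genes were lower for 8 of 16 members and higher for 1, with a median that turned positive, and 6 higher and 5 lower, with scaling by total count. The lower count was 5 without Lgr5 positive replicate 2 or without differentiated replicate 1. The summed level was 2121 and 1065 CPM against 19974 and 13673 CPM. Clca3, of the mucus granule, was at 220.3 and 160.2 against 4295 and 2968 CPM (log2 −4.25 ± 0.37), the trefoil gene Tff3 at 288 and 118 against 2580.02 and 1481 CPM (log2 −3.32 ± 0.50) and Fcgbp, a mucus protein, at 408 and 126 against 6391 and 4595 CPM (log2 −4.36 ± 0.58). Agr2, a disulfide isomerase for mucin, was at 311 and 191 against 180.5 and 159 CPM and the goblet factor Spdef at 15.04 and 9.59 against 18.7 and 9.40 CPM, and neither was called with TMM. With scaling by total count Agr2 was called higher (log2 1.72), as it was with upper quartile scaling (log2 0.90) and on the log2(FPKM + 1) scale (1.09). Clca1 was the higher member, at 24.8 and 80.6 against 1.03 and 5.91 CPM (log2 3.92 ± 0.85, adjusted p = 0.00376). It was not called by edgeR with no filter (adjusted p = 0.0683). Its log2 value ran from 2.83 without Lgr5 positive replicate 2 to 5.61 without differentiated replicate 2. Symbols are those of the deposited mm9 data, where Clca1 and Clca3 are separate entries. Whether the entry Clca1 is a goblet cell gene was not tested.

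Of 27 enteroendocrine genes, 9 were higher (33.3%, near the 34.4% over all genes tested) and 14 lower (51.9%, against 31.9%). The sign of the median turned with scaling by total count. Neurog3, the transcription factor that starts the lineage, was at 8.27 and 8.21 against 0.953 and 0.444 CPM (log2 3.56 ± 0.50, adjusted p = 0.000395). Insm1 and Rfx6, which follow it, were at 7.33 and 6.52 against 1.03 and 1.03 CPM and 5.45 and 6.84 against 0.622 and 0.888 CPM (log2 2.75 ± 0.41 and 3.02 ± 0.45). Among hormone genes, Gip was lower, at 31.2 and 15.2 against 244 and 146 CPM (log2 −3.07 ± 0.44), as were Sct (secretin) at 7.30 and 4.47 against 97.9 and 37.9 CPM (log2 −3.53 ± 0.51), and Cck at 8.75 and 5.14 against 81.3 and 38.8 CPM (log2 −3.11 ± 0.46). Chga, a granule protein of mature cells, was at 30.1 and 11.4 against 143 and 69.9 CPM (log2 −2.36 ± 0.52). The hormone genes Tac1 and Gcg were higher, Gcg at 36.6 and 31.7 against 11.03 and 5.60 CPM (log2 2.04 ± 0.40). With scaling by total count the counts were 11 and 7.

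Tuft cell genes were higher for 5 of 17 members (29.4%, below the 34.4% over all genes tested) and lower for 1, with 12 higher and 0 lower with scaling by total count and 8 higher without Lgr5 positive replicate 1. Their summed level was 369 and 981 CPM in Lgr5 positive cells, where replicate 2 stood above the other 3 libraries, and 485 and 286 CPM in differentiated epithelium. Dclk1, a kinase that marks tuft cells, was at 58.4 and 155 against 28.2 and 29.8 CPM (log2 1.88 ± 0.45, adjusted p = 0.00609) and lost its call without Lgr5 positive replicate 2 (log2 1.01). Their lineage factor Pou2f3 was at 21.4 and 39.9 against 10.6 and 5.65 CPM (log2 1.91 ± 0.45), and the taste channel gene Trpm5 at 50.9 and 125 against 94.6 and 57.6 CPM with no call (log2 0.21 ± 0.45).

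**Figure D5:**
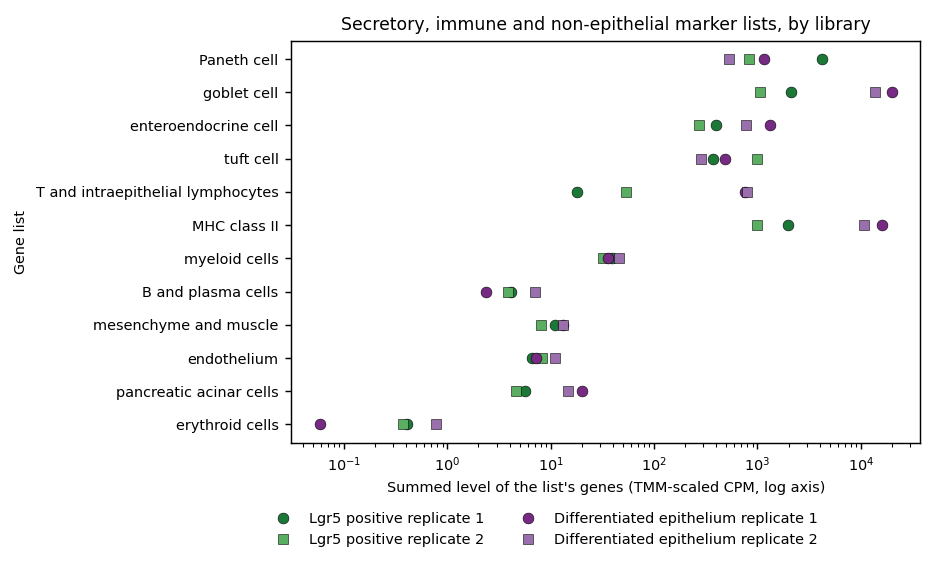
Summed level of the genes of 12 marker lists in TMM-scaled CPM on a log axis, 1 point per library. Circles are replicate 1 and squares replicate 2. Goblet, lymphocyte and MHC class II sums are higher in both differentiated libraries, the Paneth sum is highest in Lgr5 positive replicate 1 and the tuft sum in Lgr5 positive replicate 2.

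Lists of cells other than the epithelium were compared as well, and so was a list of MHC class II presentation, which is not tied here to any cell type. Of 17 genes of T and intraepithelial lymphocytes, 14 were lower in Lgr5 positive cells and 0 higher, and their summed level was 18.1 and 53.1 CPM against 765 and 802 CPM. The granzyme gene Gzma was at 1.48 and 1.26 against 244 and 295 CPM (log2 −7.62 ± 0.38) and the co-receptor gene Cd8a at 0.204 and 0.194 against 48.4 and 62.4 CPM (log2 −8.12 ± 0.42). The T cell receptor chain Cd3e was at 0.0872 and 0.0670 against 25.1 and 22.4 CPM (log2 −8.28 ± 0.48). Ptprc (CD45), carried by all white blood cells, was at 6.02 and 41.1 against 25.6 and 40.3 CPM and was not called. The part of lymphocyte RNA in the differences of other lists was not tested. All 7 genes of MHC class II presentation were lower, with summed levels of 1984 and 993 CPM against 16178 and 10713 CPM. Cd74, the invariant chain, was at 957 and 459 against 8262 and 5261 CPM (log2 −3.26 ± 0.45), and the transactivator gene Ciita at 9.93 and 6.98 against 81.8 and 84.5 CPM (log2 −3.30 ± 0.33). Of 12 myeloid genes tested, 6 were lower and 1, the lipopolysaccharide co-receptor gene Cd14, higher (median −4.25), and 10 were lower without Lgr5 positive replicate 1. The lower members included Tyrobp, an adaptor of myeloid and natural killer receptors, at 0.160 and 0.0938 against 8.85 and 6.73 CPM (log2 −5.98 ± 0.54). Their part in the MHC class II values was not tested. The summed myeloid level, to which Cd14 gave 27.95 and 25.3 against 8.40 and 7.60 CPM, was 39.3 and 31.9 CPM against 36.2 and 46.0 CPM, and that of the B and plasma cell list 4.16 and 3.82 CPM against 2.37 and 7.05 CPM. Mesenchymal, endothelial, acinar and erythroid lists each summed to at most 20.1 CPM in every library.

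Junction genes were lower for 15 of 23 members tested and higher for 3 with TMM, and lower for 9 and higher for 6 with scaling by total count. The pore-forming claudin of the crypt, Cldn2, was at 303 and 313 against 6.57 and 20.7 CPM (log2 4.50 ± 0.55), and Cldn8 at 4.86 and 5.64 against 0 and 0.0533 CPM, a ratio of 197-fold from 3 counts in differentiated epithelium (95% counting interval 67.4 to 955) that all lie in replicate 2, without which the group has 0 counts and the fitted log2 value goes from 7.49 to 11.88. Cldn4 was at 11.9 and 8.75 against 250.1 and 275 CPM (log2 −4.67 ± 0.34), Cldn15 at 334 and 243 against 1933 and 1519 CPM (log2 −2.58 ± 0.32), and the liver-intestine cadherin Cdh17 at 509.6 and 475 against 2613 and 4087 CPM (log2 −2.77 ± 0.34). Claudins thus lay on both sides of 0 under all 4 scalings, Cldn2 at log2 5.62 and Cldn4 at −3.52 with total count.

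Regulators of cell death were higher for 4 of 23 members and lower for 11 with TMM, and higher for 9 and lower for 7 with scaling by total count. Bcl2, which blocks apoptosis, was at 24.5 and 20.3 against 3.42 and 6.32 CPM (log2 2.20 ± 0.41, adjusted p = 0.00173), whereas its relative Bcl2l1 was at 20.9 and 17.2 against 171 and 118 CPM (log2 −2.93 ± 0.33). Trp53 was at 82.4 and 68.4 against 24.95 and 18.5 CPM (log2 1.79 ± 0.31). Of 22 immediate early and dissociation stress genes, 2 were higher and 10 lower with TMM and 7 higher and 7 lower with scaling by total count, where the median turned from −0.81 to 0.34. Atf3 was at 2.43 and 2.75 against 48.2 and 91.8 CPM (log2 −4.75 ± 0.42) and Fos at 42.9 and 12.01 against 179.97 and 219 CPM (log2 −2.86 ± 0.56, and −3.02 and −2.74 with no call without differentiated replicate 1 and 2), while Jun was at 86.04 and 100.1 against 104 and 91.3 CPM with no call (log2 −0.07 ± 0.28). The effect of dissociation on these genes was not tested.

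A set of abundant genes stood at nearly the same TMM-scaled level in both groups. Cdh1 (E-cadherin), the epithelial adhesion protein, was at 1355 and 1009 against 1035 and 1193 CPM (log2 0.09 ± 0.29), the chaperone gene Hspa5 at 748 and 674 against 523 and 751 CPM (log2 0.16 ± 0.30), and Gnas, a G protein subunit, at 646 and 468 against 750.1 and 534 CPM (log2 −0.21 ± 0.32). Gdi2, Rnf128 and Atp8b1 also had log2 fold changes within 0.25 of 0. None of the 6 was called with TMM, but with scaling by total count all 6 were called higher, from Gnas (log2 0.95) to Hspa5 (log2 1.30). Epcam, by contrast, was at 1356 and 1391 against 2691 and 2514 CPM (log2 −0.92 ± 0.27, adjusted p = 0.0168), but lost the call without Lgr5 positive replicate 1 or 2 or differentiated replicate 1 (log2 −0.93, −0.94 and −0.91), and its sign turned with scaling by total count.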

How the data were processed

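The authors deposited raw read counts per transcript and, in a second table, FPKM values (reads scaled by transcript length and library size) for the same libraries, on mm9. CASAVA 1.8.2 and edgeR are named per the submitters' processing notes. For aligner, counter and strand setting the sources used here give no name. Here 1 transcript per gene, the one the deposited table marks as best, was kept for 18594 genes. The 4 libraries were fitted alone with edgeR 4.0.16 in R 4.3.3 (TMM scaling, filterByExpr by group, robust quasi-likelihood fit, 2-sided test), and genes with an adjusted p under 0.05 were called. The biological coefficient of variation was 30.6%. On simulated data with 14091 genes and the same group sizes, 32 of 49 genes raised 4-fold and 23 of 47 lowered 4-fold were called, 2 of 48 and 1 of 48 at 2-fold, with 7 false calls. Only 200 genes were changed there, whereas 66.3% of genes were called in the data. The adjustment was therefore stricter in the simulation, and its shares do not carry over to these data.

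Named genes are the 4 markers, the 12 called genes with the largest fold change each way at a mean of at least 10 CPM and with groups that do not overlap, up to 6 called members each way with the smallest p and up to 2 uncalled members with the highest mean of each list, and 6 abundant genes with an absolute log2 change under 0.25. Other genes were named for their role after their values were seen: Acta2, Apob, Axin2, Bop1, Ccnb2, Cdkn1b, Cdx2, Chga, Col1a1, Ddx3y, Dnmt1, Dnmt3a, Efnb3, Ezh2, Fos, Gata4, Gata6, Hnf4a, Hnf4g, Ihh, Lyz1, Mgam, Mki67, Ncapd2, Pdx1, Rnf43, Rrm1, Sis, Slc3a2, Spdef and Top2a. The members and lists were chosen with earlier results of these data known. Alternatives covered scaling, filters, the transcript kept, the test (DESeq2 1.42.0, limma 3.58.1), FPKM on the log2 scale, all 10 libraries in 1 fit, a test against a 2-fold change, a replicate block and each library left out. Intervals on counts cover counting error only. Some genes are not reported here.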

Additional observations from a re-analysis of the deposited data

How the results depend on the processing

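Scaling by total count gave 7866 genes higher and 2568 lower in Lgr5 positive cells, against 5005 and 4637 with TMM, and moved the median of all genes by 1.15 on the log2 scale. In 1 fit of all 10 libraries edgeR called 0 genes each way, with a smallest adjusted p of 0.338, and the cause was not tested. The median log2 fold change in that fit was 0.12, the same as in the main fit. Apoa4 stood there at log2 −9.31, against −9.32 in the main fit, and Ada at −7.93, against −7.94. Leaving out each library in turn gave 4148 to 4931 higher and 4274 to 4438 lower genes. Under every other alternative both counts stayed within 1.5 times those of TMM. With total count scaling the log2 value was 0.30 for Dll1 and 0.23 for Epcam, both lower with TMM and neither called, and became positive and called for Atoh1 (1.16), Dnmt3a (0.97), Fzd5 (1.03), Gnas (0.95), Jun (1.09), Pola2 (1.04) and Ubtf (0.81). Without Lgr5 positive replicate 1, Itln1 was at −1.28 (0.74 without replicate 2), and Ddx3y, with 0 counts left in Lgr5 positive cells, at a fitted −13.91 that is no bound (2.08 without replicate 2). Of 220 named genes tested, 183 kept direction and call with total count scaling, and 198 on the log2(FPKM + 1) scale. With the replicate number as a block the counts were 5357 and 5097. The labels do not say that the numbers pair the samples, and the correlation across genes of replicate 1 minus replicate 2 between groups was 0.41, from only 2 pairs. The 2 libraries per group limit the precision, with a median SE of 0.38 on the log2 scale, and genes at 0 in 1 group have no defined fold change.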

Other observations

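Genes that are known for one region of the gut were compared too, since the labels give no region for any library. Of 10 genes of the proximal small intestine, 9 were lower in Lgr5 positive cells and 1 higher. Lower members such as Cyp2b10, Lct, Slc5a1 and Slc40a1 are also on lists given above, so this count is no separate result. The transcription factor gene Gata4, which marks the duodenum and jejunum, was at 62.3 and 58.4 CPM in Lgr5 positive cells against 302 and 264 CPM (log2 −2.23 ± 0.28), and Pdx1, of the duodenum, at 1.96 and 1.91 against 21.2 and 21.97 CPM (log2 −3.48 ± 0.36). Of 7 ileal genes tested, 5 were lower and 1, Fabp6, higher. The bile acid exporter genes Osta and Ostb had log2 fold changes of −6.19 ± 0.45 and −5.53 ± 0.34. Of 9 genes more abundant in the colon, 4 were higher (44.4%) and 3 lower (33.3%), near the 34.4% and 31.9% over all genes tested. The carbonic anhydrase gene Car1 was at 4.30 and 1.99 CPM in Lgr5 positive cells and had 0 counts in both differentiated libraries. The part of region in these differences was not tested.

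Sex-linked genes differed within the Lgr5 positive group. The Y-linked gene Ddx3y was at 94.2 and 0 CPM in replicates 1 and 2 and at 15.4 and 29.1 CPM in differentiated epithelium. The X-inactivation gene Xist was at 1.57 and 2088 CPM and 0.0194 and 0 CPM. The library labelled female thus had Xist and no Ddx3y counts, and the other 3 libraries had Ddx3y and at most 1.57 CPM of Xist. None of the 5 sex-linked genes was called with all 4 libraries, while without Lgr5 positive replicate 1, the library labelled male, 1 was called higher and 4 lower.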
